A study of Mus musculus with 6 samples.

Results

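The genes described here are those of mouse chromosome 15, compared between c-Kit+ cells of acute promyelocytic leukemia (APL) and normal myeloid progenitors (MPs). They were the genes whose locus lies on chromosome 15 and whose value was at least 10 scaled fragments in each of the 6 RNA-seq libraries. This held for 436 of the 639 chromosome 15 genes in the deposited table (68.2%), among 11002 of 16440 genes in all, so that 10566 genes of other chromosomes served for comparison. Of the 436, 424 are protein coding in RefSeq, and 69 (15.8%) have a locus that the table shares with another gene, between which fragments may be divided.

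The 3 MP libraries came from Lin-Sca-1-c-Kit+ bone marrow (BM) cells of FVB N/J mice, a gate without cells of mature lineages and without Sca-1+ cells. The 3 APL libraries came from c-Kit+ cells of the same strain that carried GFP, from mice in which the human MRP8 promoter drives the PML/RARα fusion gene in myeloid cells. Per the labels and the study's methods, the GFP was carried by a retroviral vector, and the leukemic cells had been grown in syngeneic recipients by transplantation. In the study's methods for this labeling, the cells were cultured with SCF, IL-6 and IL-3, and their recipients were sublethally irradiated. Fusion, vector, the labeling procedure and transplantation thus all separate the groups and cannot be told apart. Recipients in the transplantation experiments were 6 to 10 weeks old, the age of the donors of MPs is not given in the sources used here, and neither is whether each library had its own mouse, so p-values measure the spread between these libraries. The comparison addresses which genes are dysregulated in immature APL cells relative to normal MPs.

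Chromosome 15 carries Myc, the gene of a transcription factor that drives growth of blood progenitors, and also the Ly6 family of surface proteins, the common beta chain of the cytokine receptors for GM-CSF, IL-3 and IL-5, and members of many complexes used by every cell. Gain of chromosome 15 is known as a recurrent change in leukemias of PML/RARα mice. A gain of a chromosome is known to raise the RNA of most of its genes in rough proportion to the copies, whereas genes under strong regulation can depart from it. DNA copy number was not measured in these samples.

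The sequences upstream of 5 genes show the range of start regions behind the values that follow. Each holds the 250 bases before the gene's start in RefSeq (GRCm38.p6), 5′ to 3′ on the gene's strand, with CG dinucleotides in capitals. Samm50, encoding a protein of the mitochondrial outer membrane assembly machinery (chr15:84191990-84192239, plus strand), and Sbf1, encoding a myotubularin-related protein (chr15:89315312-89315561, minus strand), stand for genes near 1.5-fold. They are the highest in level among such genes with an entry in the sequence table and no other gene across the window. Dab2, an endocytic adaptor (chr15:6299539-6299788, plus strand), had the largest increase. Galnt6, an enzyme that starts O-linked glycans (chr15:100729377-100729626, minus strand), had the largest decrease among genes with an entry. Ly6c2, a surface protein of myeloid cells (chr15:75111972-75112221, minus strand), had the most fragments of all genes of the chromosome in the mean of the 6 libraries, though not in the MP libraries, where Rpl3 had more.
Samm50: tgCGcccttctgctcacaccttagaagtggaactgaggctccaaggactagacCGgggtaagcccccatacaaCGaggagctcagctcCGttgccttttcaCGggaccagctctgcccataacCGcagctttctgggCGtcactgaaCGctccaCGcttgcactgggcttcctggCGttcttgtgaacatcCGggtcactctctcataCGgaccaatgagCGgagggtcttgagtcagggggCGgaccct
Sbf1: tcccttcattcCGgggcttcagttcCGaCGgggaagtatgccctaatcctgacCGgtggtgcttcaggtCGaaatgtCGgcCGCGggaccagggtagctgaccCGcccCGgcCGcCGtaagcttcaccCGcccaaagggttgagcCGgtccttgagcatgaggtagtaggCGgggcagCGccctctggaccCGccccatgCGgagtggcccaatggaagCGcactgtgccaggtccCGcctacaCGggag
Dab2: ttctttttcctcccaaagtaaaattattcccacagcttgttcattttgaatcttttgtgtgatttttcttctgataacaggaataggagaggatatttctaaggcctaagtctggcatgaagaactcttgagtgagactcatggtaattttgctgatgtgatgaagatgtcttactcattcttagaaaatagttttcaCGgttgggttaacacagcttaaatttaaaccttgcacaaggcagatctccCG
Galnt6: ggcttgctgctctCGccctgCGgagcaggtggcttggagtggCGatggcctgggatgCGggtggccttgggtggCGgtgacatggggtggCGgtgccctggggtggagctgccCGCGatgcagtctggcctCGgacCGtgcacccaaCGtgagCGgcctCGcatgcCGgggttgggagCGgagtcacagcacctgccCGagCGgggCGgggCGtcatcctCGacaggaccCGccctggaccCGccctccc
Ly6c2: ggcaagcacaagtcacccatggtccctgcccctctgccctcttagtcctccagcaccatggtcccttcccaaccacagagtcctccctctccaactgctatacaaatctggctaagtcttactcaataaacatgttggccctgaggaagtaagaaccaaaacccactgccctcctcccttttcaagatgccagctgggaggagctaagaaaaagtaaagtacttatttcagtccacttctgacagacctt

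The windows of Samm50 and Sbf1 hold 14 and 21 CG dinucleotides, and that of Galnt6 holds 22, against a median of 16 (quartiles 10 and 23) over the same window of 8644 genes of other chromosomes. Those of Dab2 and Ly6c2 hold 2 and 0. Only 238 of the 436 genes (54.6%) had an entry, so base composition was not compared over the chromosome.

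Libraries were checked before genes were read. Divided by the value of a single fragment, the totals were 23605999, 22976881 and 26932357 fragments in the MP libraries (replicates 1 to 3, the order kept throughout) and 20608715, 28382785 and 20911902 in the APL libraries. MP library 3 stood apart within its group. Its median absolute log2 difference from MP libraries 1 and 2 was 0.209 and 0.213 over all genes, against 0.0800 between those libraries and 0.0868 to 0.133 among the APL libraries. On chromosome 15 its difference went with transcript length, as the ratio of fragments to FPKM gives it (a comparison added after the values were seen). With all genes divided into 4 groups of equal size by length, the median value of MP library 3 in the shortest group was 0.33 above the mean of MP libraries 1 and 2 on the log2 scale, and that in the longest group was −0.10, while genes of other chromosomes gave 0.34 and −0.13. Where leaving out MP library 3 turned a sign or a call of a named gene, this is stated below, in most cases with the value. Where it moved a printed list count by over 1.5 times, the count without it is given.

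Chromosome 15 genes as a group had more RNA in APL cells. The median log2 ratio of mean APL to mean MP scaled fragments was 0.48 for the 436 genes and −0.08 for all other genes, which places the median gene of chromosome 15 at 0.56 above that of the others, or 1.48-fold. Of the 436 genes, 82.3% lay above the median of the other genes, and 80.7% had a ratio above 1 against 44.6% of other genes. The displacement was not limited to the upper end of the distribution. It was 0.47 at the 5th percentile, 0.56 at the 25th, 0.62 at the 75th, 0.60 at the 90th and 0.85 at the 95th, and the interquartile range was 0.94 for chromosome 15 and 0.88 for other genes.

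**Figure D1:**
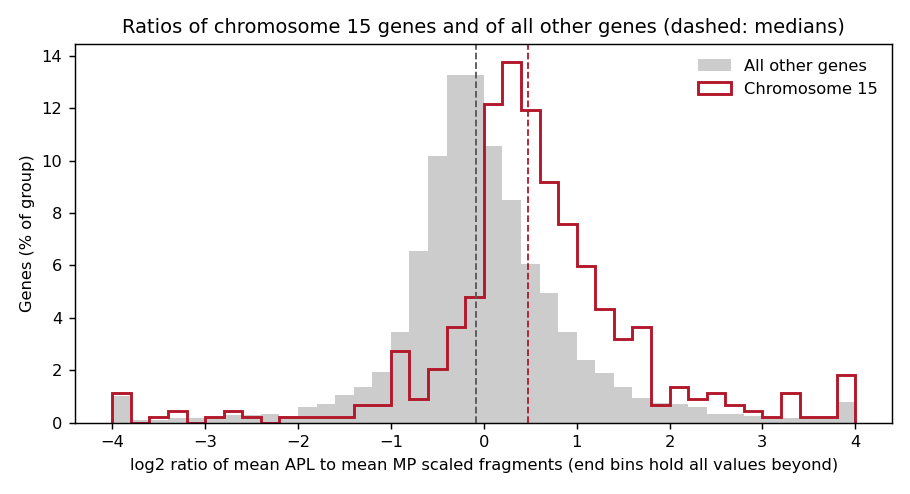
Distribution of the log2 ratio of mean APL to mean MP scaled fragments (x axis, bins of equal width, the end bins holding all values beyond) as a percentage of each group of genes (y axis), for 436 chromosome 15 genes (red line) and 10566 other genes (gray). Dashed lines mark the medians, 0.48 and −0.08, and the red outline is displaced along most of its width.

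Each library showed the displacement. With each gene set against its mean over the 6 libraries, the median chromosome 15 gene lay at −0.31, −0.28 and −0.27 (log2) relative to other genes in the MP libraries and at 0.28, 0.30 and 0.28 in the APL libraries. The groups did not overlap, and their means of −0.29 ± 0.0182 and 0.29 ± 0.0125 (SD, n = 3 each) were separated by far more than the spread within a group. Chromosome 8 was the other chromosome with such a displacement, at 0.56, whereas the 18 remaining chromosomes lay between −0.15 (chromosome 18) and 0.02 (chromosome 1). The share of all scaled fragments that fell on chromosome 15 genes was 4.38%, 4.41% and 4.49% in the MP libraries and 6.03%, 6.36% and 6.17% in the APL libraries. Ly6c2 alone held a visible part of this. Without it the shares were 4.37% ± 0.0613 and 5.61% ± 0.164 (SD, n = 3 each). Without MP library 3 the displacement was 0.60, and it was as large in long as in short transcripts, at 0.56 in the longest of the 4 groups and 0.58 in the shortest.

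**Figure D2:**
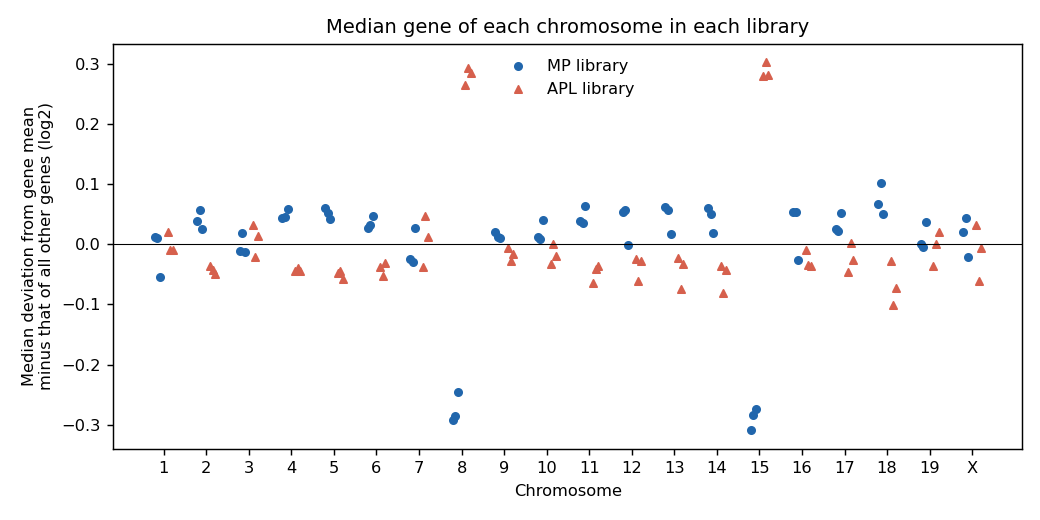
For each chromosome (x axis), the median over its genes of the log2 deviation of a library from the gene's mean over 6 libraries, minus the same median of all other genes (y axis), in the 3 MP libraries (blue circles) and the 3 APL libraries (red triangles). On chromosomes 8 and 15 the MP libraries lie below and the APL libraries above all others, and on the other chromosomes single libraries stay between −0.10 and 0.10.

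Gene by gene, limma on log2(scaled fragments + 1), with Benjamini-Hochberg adjustment over all 11002 genes, found 283 of the 436 genes (64.9%) higher in APL cells at an adjusted p under 0.05 and 56 (12.8%) lower. The background shares over all genes tested were 31.7% higher and 35.8% lower. With a fold change over 1.5 asked as well, 192 genes (44.0%) were higher and 38 (8.72%) lower, against a background of 20.8% and 18.6%. This second threshold falls in the middle of the chromosome's distribution, so that many genes with like values lie on either side of it. All 3 APL libraries lay above all 3 MP libraries for 276 genes (63.3%, background 32.8%) and below them for 61 (14.0%, background 38.6%).

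A gene was taken as near 1.5-fold when its log2 ratio, relative to the median of all other genes, was within 0.25 of that of a 1.5-fold increase (between 1.26-fold and 1.78-fold), and as far from it when it was more than 1 away (over 3-fold higher, or over 1.33-fold lower). Near 1.5-fold lay 133 genes (30.5%), against 15.7% of other genes and 34.6% of the genes of chromosome 8. Far above lay 64 genes (14.7%, other genes 6.0%) and far below 40 (9.17%, other genes 23.5%), while 199 genes lay between. Around their own median, the genes of chromosome 15 were as dense as the others, with 31.9% and 31.2% of genes within 0.25. The 95% limma interval of a single gene, with a median width of 0.49 on the log2 scale, held the 1.5-fold value for 137 genes (31.4%, other genes 17.4%) and no change relative to other genes for 77 (17.7%, other genes 31.6%), and it held both for 11.

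Along the chromosome the displacement was present up to its last stretch, where it was smaller. The first gene measured was Sepp1, starting at base 3270767, and the last was Pde1b, ending at base 103530052 (GRCm38). In windows of 10 Mb, the 7 windows with at least 20 genes had median relative log2 ratios of 0.69 (0 to 10 Mb), 0.69 (30 to 40 Mb), 0.64 (50 to 60 Mb), 0.66 (70 to 80 Mb), 0.51 (80 to 90 Mb), 0.67 (90 to 100 Mb) and 0.23 (from 100 Mb on). The 4 windows with fewer genes (6 to 14) lay between 0.29 and 0.87. In the window from 30 to 40 Mb, 33 of 35 genes were above the median of other genes. In the window from 100 Mb on, which runs from Dip2b to Pde1b, 33 of 50 genes (66.0%) were above it, 12 were higher and 10 lower at both thresholds (shares close to the backgrounds of 20.8% and 18.6%), and single APL libraries gave 0.23, 0.22 and 0.31. Of 176 such windows on chromosomes other than 8 and 15, which lay between −0.45 and 0.30, 8 were at or above the value of that last window and 0 reached the next lowest of chromosome 15.

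**Figure D3:**
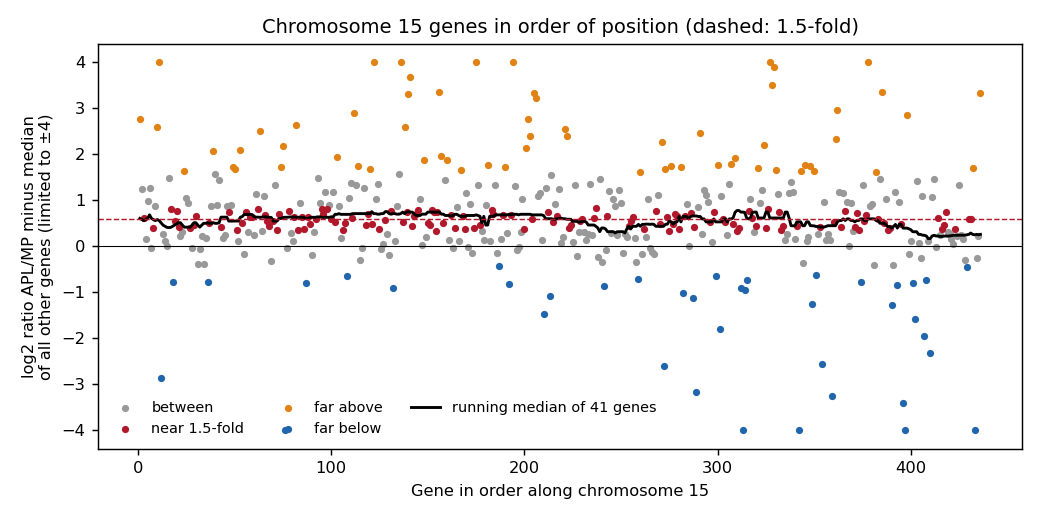
Relative log2 ratio of APL to MP (y axis, minus the median of all other genes, limited to ±4) of the 436 genes in their order along chromosome 15 (x axis). Points are colored by distance from 1.5-fold (133 near, 199 between, 64 far above, 40 far below), and the black running median stays close to the dashed 1.5-fold line until it sinks in the last genes.

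On chromosome 15 a larger share of the abundant genes lay near 1.5-fold, a range that holds the chromosome's own median but not that of other genes. The spread of log2 ratios was also narrower for abundant than for low genes elsewhere. In 4 groups of equal size by mean scaled fragments, set over all genes, from the lowest to the highest, the median of chromosome 15 exceeded that of other genes by 0.76, 0.47, 0.61 and 0.54 (86, 99, 104 and 147 genes). The share near 1.5-fold was 12.8%, 30.3%, 35.6% and 37.4%, and the share far from it 37.2%, 34.3%, 18.3% and 12.9%. Of other genes, 14.03%, 16.26%, 17.04% and 15.67% were near 1.5-fold and 40.5%, 29.2%, 22.8% and 25.3% far from it. The interquartile range of the log2 ratios was 1.27, 1.01, 0.87 and 0.69 for chromosome 15 and 1.27, 0.84, 0.72 and 0.87 for other genes. In length-normalized terms, the near genes had a median of 24.3 FPKM, the genes far above 7.82 FPKM and those far below 5.82 FPKM. Low values scatter more between libraries, and the part of that scatter in these shares was not tested.

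Among the 5 genes of highest level near 1.5-fold were Ly6e, Rad21, Zfp706 and Eif3h. Rad21 (Entrez 19357, chr15:51962604-51991760), the cleavable subunit of the cohesin ring that holds sister chromatids together, had 7611, 7712 and 8389 scaled fragments in the MP libraries and 11558, 11298 and 12094 in the APL libraries. The APL libraries were all higher, the groups were far apart, and the log2 ratio was 0.56 (SE 0.08 from limma, adjusted p = 1.5e-04). Zfp706, a small zinc finger protein, went from 6669 ± 292 to 10183 ± 901 (SD, n = 3 each), a log2 ratio of 0.61. Eif3h, a subunit of the translation initiation factor eIF3, had 6787, 6879 and 9077 scaled fragments in the MP libraries and 8837, 9539 and 9137 in the APL libraries. Here MP library 3 was higher than APL library 1, and the groups overlapped, with a log2 ratio of 0.27 (limma adjusted p = 0.0481), and without MP library 3 limma's log2 difference was 0.42. With any other single library left out, Eif3h did not pass the adjusted threshold.

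Complexes give a second yardstick, because members on chromosome 15 can be set beside members of the same complex on other chromosomes. In 17 lists of complexes and pathways, 50 chromosome 15 genes had a log2 ratio that exceeded the median of their partners in 44 cases (88%), by a median of 0.55, or 1.46-fold. At an adjusted p under 0.05 (limma), 24 of the 50 (48.0%) were higher and 3 lower, beside a background of 31.7% and 35.8% and a share of 64.9% higher on the whole chromosome. Of their 302 partners, 36 were higher and 162 lower. Without MP library 3 these counts were 33 and 4 of the 50 and 50 and 166 of the partners, and with another single library left out 18 to 20 of the 50 were higher. With a fold change over 1.5 as well, 15 of the 50 were higher and 0 lower (background 20.8% and 18.6%), against 27 and 74 of the partners. Without MP library 3 the partners' counts were 31 and 37, and 46 of the 50 lay above their partners' median, by a median of 0.54. The median of the chromosome 15 members was above that of the partners in 15 of the 17 lists.

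Ribosomal protein genes of other chromosomes were mostly below 0 in log2 ratio, and those of chromosome 15 lay on both sides of it. Of 75 cytosolic ribosomal protein genes on other chromosomes, 31 were lower and 0 higher at both thresholds (background 18.6% and 20.8%), with a median log2 ratio of −0.59. Without MP library 3 only 8 of them were lower and their median was −0.36, and without another single library 24 to 51 were lower. The 4 on chromosome 15 had −0.41 (Rpl3), −0.12 (Rpl37), 0.21 (Rpl8) and 0.28 (Rpl30), none past the adjusted threshold. Rpl3 had 44626, 46310 and 66245 scaled fragments in the MP libraries and 34298, 40653 and 43226 in the APL libraries. MP library 3 was far above the other MP libraries, and without it limma's log2 difference was −0.21 for Rpl3 and 0.08 for Rpl37, while Rpl8 (0.40, adjusted p = 0.00823) and Rpl30 (0.48, adjusted p = 2.5e-04) passed as higher. Without MP library 1, Rpl3 passed as lower (−0.50, limma adjusted p = 0.0474). For eIF3, the complex that brings mRNA to the small ribosomal subunit, the 10 partners had a median of −0.26 and the 4 chromosome 15 subunits 0.27 (Eif3h), 0.23 (Eif3d), 0.11 (Eif3l) and −0.12 (Eif3e). With all 6 libraries Eif3h alone passed the adjusted threshold, and without MP library 3 Eif3d (0.35) and Eif3l (0.22) passed with it, Eif3e had −0.01 and the partners' median was −0.13. Rpl30 shares its locus with Gm12191, which had far more scaled fragments (15528, 14640 and 20861 in the MP libraries) and a log2 ratio of 0.03. Fragments of ribosomal protein genes can be shared with processed pseudogenes, so their values are uncertain.

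Genes of respiration and transcription gave the same order. The 71 oxidative phosphorylation genes of other chromosomes had a median of −0.30, and the 5 of chromosome 15 had 0.57 (Ndufa6), 0.55 (Cox6c), 0.44 (Ndufb9), 0.14 (Atp5g2) and −0.13 (Cyc1). At both thresholds 1 of the partners was higher and 10 lower, shares below the backgrounds of 20.8% and 18.6%. Without MP library 3 these counts were 3 and 4 with a median of −0.12, while Cyc1 turned to 0.02. Ndufa6 and Ndufb9, both subunits of complex I, and Cox6c, a subunit of cytochrome c oxidase, passed the adjusted threshold. Without MP library 3 Atp5g2 passed too (0.32, limma adjusted p = 0.00557), and Cox6c did not pass without MP library 1, MP library 2 or APL library 3. Ndufa6 had 1080, 1153 and 1682 scaled fragments in the MP libraries and 1753, 1856 and 2188 in the APL libraries, which did not overlap. For the nuclear RNA polymerases the 24 partners had a median of −0.57, with 11 lower at both thresholds (background 18.6%), against 0.57 for Polr2k and 0.32 for Polr2f. The partners had −0.47, with 7 lower, when MP library 3 was left out. Polr2k passed the adjusted threshold although its groups overlapped, but not without MP library 1, MP library 2, APL library 1 or APL library 3, and Polr2f passed without MP library 3 (0.47). For mRNA-binding and splicing proteins the 29 partners had −0.46, the highest of them at −0.05. Of the 7 on chromosome 15, Ddx17, Cpsf1, Puf60 and Rbfox2 rose and Hnrnpa1 fell, and all 7 lay above the partners' median. Ddx17 did not pass with any single library left out (0.18 without MP library 3). Hnrnpa1 did not pass without APL library 1 or 2, whereas Pcbp2 (0.25) and Pabpc1 (0.31) passed without MP library 3. Rbfox2, a splicing regulator, had 31.8, 46.7 and 35.2 scaled fragments in the MP libraries and 653, 656 and 634 in the APL libraries, a log2 ratio of 4.10 that is far above the others.

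**Figure D4:**
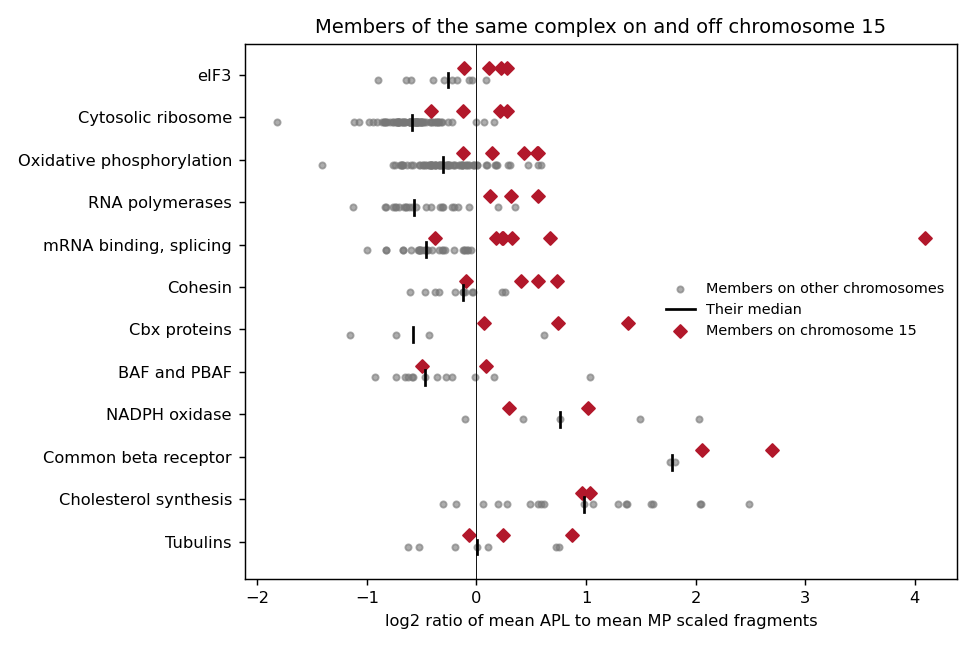
Log2 ratio of mean APL to mean MP scaled fragments (x axis) for members of 12 complexes or pathways (rows) on chromosome 15 (red diamonds) and on other chromosomes (gray circles, with a black bar at their median). In the first 7 rows the diamonds lie at or to the right of the bar, and in the last 4 rows the partners are themselves near or above 0.

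All chromosome 15 members of the cohesin list (4), the chromobox list (3) and the list of Ep300 and Mll2 (2) lay above the median of their partners. Of the 2 members in the remodeling list 1 did, and the 1 member in the list for DNA end joining did not. In the cohesin list, Rad21 (0.56), the loader subunit Nipbl (0.73) and Dscc1 (0.40), which takes part in cohesion at the replication fork, rose, and Espl1, the protease that cuts cohesin, had −0.10, against a median of −0.12 in 12 partners. Dscc1 did not pass without MP library 2, APL library 2 or APL library 3. Nipbl had 4716, 4775 and 3227 scaled fragments in the MP libraries and 8465, 6132 and 6541 in the APL libraries. The groups did not overlap, but the low MP library 3 carries part of the ratio, and without it limma's log2 difference was 0.56. Cbx6 and Cbx7, chromobox proteins of polycomb complexes, rose by 0.74 and 1.39, whereas Cbx5, the heterochromatin protein HP1 alpha, had 0.07 and, without MP library 3, −0.08. Ep300, a histone acetyltransferase, and Mll2, a histone H3 lysine methyltransferase, rose by 0.47 and 1.07 against −0.25 in 7 partners. Mll2 had 4234, 4337 and 2405 scaled fragments in the MP libraries and 8487, 7524 and 7054 in the APL libraries, again with a low MP library 3 and no overlap. Without that library limma's log2 differences were 0.84 for Mll2 and 0.32 for Ep300 and the partners' median was −0.42, and without APL library 1 Ep300 did not pass the adjusted threshold. The remodeling subunit Smarcd1 fell (−0.49, limma adjusted p = 0.00129), close to the median of −0.47 of its 13 partners, while Arid2 had 0.08. Xrcc6, the Ku70 protein of DNA end joining, fell by 0.20 on the log2 scale (limma adjusted p = 0.0268), below the median of its 5 partners at 0.79, but it passed only with all libraries or without MP library 3 or APL library 3.

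In the lists of cholesterol synthesis and of the NADPH oxidase, chromosome 15 members lay within the range of their partners. Sqle, the squalene epoxidase, and Srebf2, the transcription factor that controls cholesterol synthesis, rose by 0.97 and 1.03. Of their 19 partners 12 rose at both thresholds (background 20.8%), with a median of 0.98. Rac2, a GTPase that activates the phagocyte NADPH oxidase, rose by 1.02, and Ncf4, its p40phox subunit, by 0.29, against 0.77 in 5 partners. Ncf4 passed only with all libraries or without MP library 1 or 3. By contrast Racgap1, which acts in cytokinesis, rose by 0.79 while its 10 partners had a median of −0.31. Among the tubulins Tuba1a rose (0.87), and Tuba1b and Tuba1c had −0.06 and 0.24, but their sequences are close enough that fragments may be divided between them. Tuba1c passed without MP library 3 (0.35), and Tuba1b then turned to 0.06. The argonaute and TORC2 members (Eif2c2, Tarbp2, Drosha, Rictor and Deptor) did not pass the adjusted threshold, with values between −0.28 and 0.18. Eif2c2 passed as lower without MP library 3 (−0.50, limma adjusted p = 0.0076) and Deptor without APL library 1 (−0.59).

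Of 22 chromosome 15 genes listed for roles in blood cells or leukemia, 20 had enough fragments, of which 14 were higher and 5 lower at an adjusted p under 0.05 (limma; background 31.7% and 35.8%, chromosome 15 as a whole 64.9% and 12.8%), and 10 and 3 with a fold change over 1.5 (background 20.8% and 18.6%). With single libraries left out, 12 to 14 were higher and 5 lower. Their median log2 ratio was 0.59, beside 0.48 for the chromosome, with 5 near 1.5-fold and 8 far from it. Il2rb and Il7r, receptor chains for interleukins, were below the limit. Myc (Entrez 17869, chr15:61985341-61990361) was among those that fell. It had 8066, 8889 and 8916 scaled fragments in the MP libraries and 6216, 7161 and 6399 in the APL libraries. All APL libraries were below all MP libraries, and the log2 ratio was −0.39 (SE 0.08, adjusted p = 0.00248 from limma), a decrease of 1.31-fold. Pvt1, the noncoding gene beside it, had 234, 270 and 262 scaled fragments in MP libraries and 232, 232 and 246 in APL libraries, which overlapped (limma adjusted p = 0.411). Pvt1 shares its locus with another gene, so fragments may be divided between them. Trib1, a pseudokinase that leads C/EBPα to degradation and lies in the same region as Myc, rose from 50.6, 20 and 39.7 to 256, 181 and 341 scaled fragments. Neighbors thus had ratios below, at and far above those of other genes.

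Several receptor and signaling genes of the list rose. Csf2rb (Entrez 12983, chr15:78325990-78351001), the common beta chain of the receptors for GM-CSF, IL-3 and IL-5, had 2065, 1957 and 1777 scaled fragments in the MP libraries and 11930, 13195 and 12482 in the APL libraries. The groups were far apart, with a log2 ratio of 2.70 (SE 0.08, adjusted p = 7.5e-09 from limma). Csf2rb2, the closely related IL-3 beta chain beside it, rose by 2.06. On the FPKM scale their levels in APL cells were 94.1 ± 3.90 and 12.2 ± 0.670 (SD, n = 3 each). Reads from these related genes may be divided, and the 2 partner chains on other chromosomes that passed the limit rose as well, with a median of 1.79. Rac2 had 8314, 6470 and 8304 scaled fragments in the MP libraries and 14191, 16319 and 16150 in the APL libraries, a log2 ratio of 1.02. Sla, an adaptor that dampens receptor signals, rose by 0.94, and Grap2, an adaptor of antigen receptor signaling, by 0.95. Rarg, the gamma retinoic acid receptor, rose from 160, 160 and 157 to 312, 308 and 330 scaled fragments, with little spread in either group. Nfe2, a transcription factor of the megakaryocytic and erythroid lineages, had 2974, 2997 and 3915 scaled fragments in the MP libraries and 4403, 4884 and 4858 in the APL libraries. Its log2 ratio of 0.52 is near 1.5-fold (limma adjusted p = 0.00216). Pim3, a serine/threonine kinase, was also near it at 0.40.

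The Ly6 genes, which encode small surface proteins anchored in the membrane by a lipid, had both near and far ratios. Ly6c2 (Entrez 100041546, chr15:75108161-75111949), whose upstream sequence is printed above, had 13305, 10722 and 13299 scaled fragments in the MP libraries and 146812, 149116 and 157410 in the APL libraries. Every APL library was about an order of magnitude above every MP library, with a log2 ratio of 3.60 (SE 0.13, adjusted p = 1.8e-08 from limma). Its level rose from 873 ± 77.7 to 10786 ± 166 FPKM (SD, n = 3 each). Ly6c1 rose by 3.23, and since it is a near-identical copy the division of reads between both is uncertain. Ly6i rose by 2.51 and Ly6k by 6.42. In contrast Ly6e, with 11945, 10990 and 13742 scaled fragments in the MP libraries and 15233, 17834 and 16762 in the APL libraries, was near 1.5-fold at 0.44 (limma adjusted p = 0.0045). Ly6a encodes Sca-1, the antigen absent from the MP gate, and had 19.1, 30.6 and 32.0 scaled fragments in the MP libraries and 39.0, 42.5 and 48.8 in the APL libraries. Both groups were low and did not overlap, and its increase (limma adjusted p = 0.0322) lost its call without MP library 1, APL library 2 or APL library 3.

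**Figure D5:**
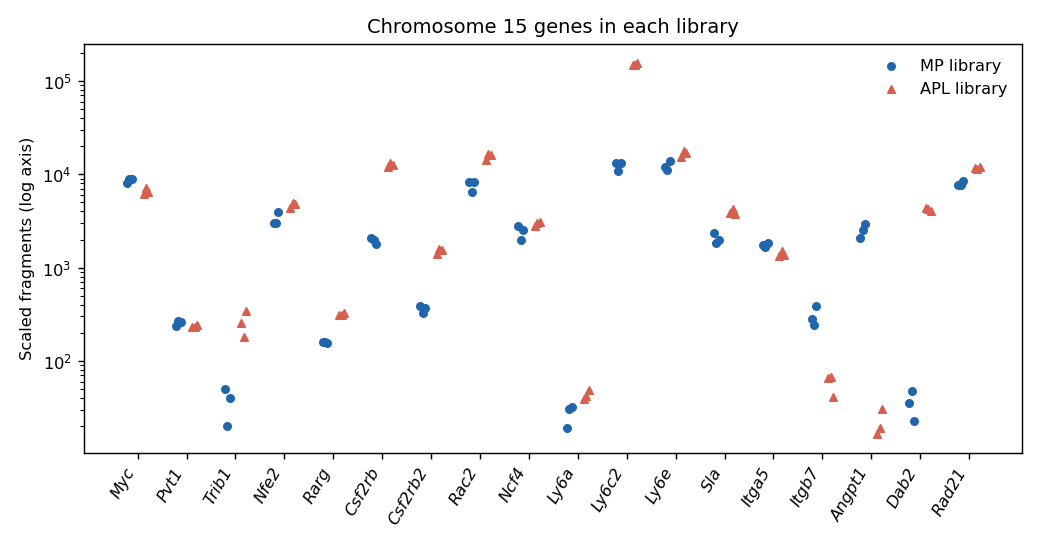
Scaled fragments (y axis, log scale) of 18 chromosome 15 genes (x axis) in the 3 MP libraries (blue circles) and the 3 APL libraries (red triangles). Myc is lower in every APL library, Rad21, Nfe2 and Ly6e lie slightly higher, Csf2rb, Ly6c2 and Dab2 lie far higher, and Angpt1 lies far lower.

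The largest increases past the thresholds, among genes with a mean of at least 100 scaled fragments, were those of Dab2, Ly6k, Faim2, Tg and Cpne8. Dab2 (Entrez 13132, chr15:6299789-6440709) had 35.6, 47.6 and 22.5 scaled fragments in the MP libraries and 4318, 4199 and 4050 in the APL libraries. It was close to silent in MPs and of middle level in APL cells, at 34.6 ± 1.70 FPKM, a log2 ratio of 6.89 (SE 0.22, adjusted p = 1.1e-08 from limma). Ly6k had 10.3, 13.3 and 19.8 scaled fragments in the MP libraries and 1216, 1297 and 1201 in the APL libraries, and its lowest value is the one nearest to the limit of 10 among all members. Faim2, an inhibitor of Fas-mediated death known from neurons, rose by 5.26, and Cpne8, a calcium-dependent membrane-binding copine, by 4.30. Tg, the thyroglobulin gene, rose by 5.14, but the table gives it the same locus as Sla, and fragments may have been divided between them.

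The largest decreases were those of Angpt1, Slc38a1, Galnt6, Zfp385a and Plxnb2. Angpt1 (Entrez 11600, chr15:42424725-42676795), the ligand of the receptor Tie2 made by immature blood cells, had 2099, 2514 and 2906 scaled fragments in the MP libraries and 16.5, 19.1 and 30.9 in the APL libraries. The groups were separated by about 2 orders of magnitude, with a log2 ratio of −6.82 (SE 0.22, adjusted p = 1.1e-08 from limma). Slc38a1, an amino acid transporter, had 4391, 4446 and 3633 scaled fragments in the MP libraries and 37.7, 43.3 and 38.3 in the APL libraries, a log2 ratio of −6.71. The log2 ratio was −5.09 for Galnt6, −4.53 for Zfp385a, a zinc finger protein of blood cells, and −4.34 for Plxnb2, a semaphorin receptor. In the blood list Itgb7, an integrin beta chain of homing lymphocytes, fell (−2.40), as did Nr4a1, an orphan nuclear receptor induced by signals (−1.66). Itga5, an integrin alpha chain for fibronectin, fell by less than 1.5-fold (−0.33, limma adjusted p = 0.00368).

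The other 203 chromosome 15 genes of the table were below 10 scaled fragments in at least 1 library, and 123 of them in all 6. For 29 genes this was so in an MP library only and for 25 in an APL library only. The limit thus removed genes of strong change in either direction, but also genes with a single value just under it. Just outside it lay Fam134b, with 610, 628 and 620 scaled fragments in the MP libraries and 22.4, 21.7 and 9.87 in the APL libraries, and Il7r, with 50.6, 38.1 and 54.1 and with 18.9, 19.9 and 9.87. Just inside lay Ly6k and A630020A06, whose lowest values were 10.3 and 10.5.

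The cells of the groups differed in lineage markers, none of which lies on chromosome 15 apart from Ly6a in the list for the gate. Kit, the antigen of both sorts, had 10442, 10970 and 10592 scaled fragments in the MP libraries and 5780, 5975 and 6033 in the APL libraries, so the sorted antigen was present in every library, while Cd34 of the same list fell from 5956, 6152 and 7944 to 74.2, 91.0 and 82.7. The summed level of 8 erythroid markers was 42124, 44176 and 56367 scaled fragments in the MP libraries and 205, 348 and 309 in the APL libraries, with Car1 the most abundant, and 3 passed the limit and all 3 fell. The 6 granulocyte markers, all of which passed, summed to 367399, 319073 and 349784 and to 780657, 934651 and 913925, with Mpo the most abundant, and 3 rose while 1 fell. The 5 megakaryocyte markers went from 2726 ± 465 to 258 ± 40.5, the 4 of mast cells and basophils from 1861 ± 338 to 901 ± 108, and 5 of monocytes and macrophages from 2167 ± 187 to 1271 ± 105 (SD, n = 3 each). In the last pair of lists 1 marker each rose against the sum, Mcpt8 from 329, 253 and 357 to 611, 683 and 745 and Emr1 from 126, 101 and 127 to 801, 885 and 781, while 2 and 3 markers fell. Over all genes tested, 20.8% were higher and 18.6% lower at both thresholds. B cell markers summed to 26.4 ± 4.29 and 116 ± 18.9 scaled fragments, with Vpreb1 the most abundant in both groups, and T cell markers, led by Lck, to 120 ± 33.8 and 134 ± 23.0. No marker was listed at 0 in every library. In bulk RNA, fewer cells of a type and less RNA per cell cannot be told apart, and the part of these markers in the values of chromosome 15 genes was not tested.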

How the data were processed

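RNA was sequenced from 3 MP and 3 APL libraries, grouped by their labels. The authors deposited 1 table with 2 kinds of value. Its FPKM values, as the authors computed them, are fragments relative to transcript length and library size. The deposited fragment values are a signal: estimated fragments scaled by a factor of each library, of which 87.6% to 89.9% of nonzero values are whole multiples of the library's smallest step (tolerance 0.05). The submitters' processing notes name CASAVA 1.8, TopHat2 2.0.6 and mm10, whereas the paper's methods name Cutadapt, STAR with mm9, HTSeq-count and DESeq2; which tool made the table is not given in the sources used here. Starts in the table count from 0 (6495 of 13827 genes with a locus of their own match RefSeq on GRCm38 after adding 1) and are printed from 1. Strandedness is not given, so antisense overlaps are uncertain. All per-sample columns were used.

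Genes with at least 10 scaled fragments in all 6 libraries were tested with limma 3.58.1 (lmFit, eBayes with trend; R 4.3.3) on log2(scaled fragments + 1), with Benjamini-Hochberg adjustment over 11002 genes. Fold changes over 1.5 were read from limma's difference of mean log2 values, in which the added 1 draws the fold changes of low genes toward no change; ratios in the text are log2 ratios of group means, and SEs are those of limma. An exact permutation test of 3 libraries against 3 cannot give a p below 0.1 and was not used. On simulated data, 195 of 200 changed genes among 11002 (97.5%) were recovered, with 0 false calls. Whether these rates hold in the deposited libraries, or for genes near 1.5-fold, was not tested. The count test planned for whole counts was not run, because the values are scaled estimates. Tables and figures were made with Python 3.11.15, pandas 2.3.3 and matplotlib 3.10.9. Depth was 20608715 to 28382785 fragments per library, and 3 fragments were taken as the limit of detection, for counting error only.

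The genes named were the list of blood and leukemia genes, the 5 largest increases and decreases with no overlap of groups and a mean of at least 100 scaled fragments, the 5 most abundant genes near 1.5-fold, the members of the complex lists and the genes at the limit of 10. Some genes that this rule names are not reported here. The members and lists were chosen with earlier results of these data known, and lists are described by counts and medians without a test. Alternatives covered the filter, the pseudocount, FPKM, scaling, shared loci, the fold threshold, the replicate number as a block and each library left out.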

Additional observations from a re-analysis of the deposited data

How the results depend on the processing

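The displacement of chromosome 15 (0.56) and the share of its genes above the median of others (82.3%) kept their direction under every alternative that was run. When genes needed only 1 scaled fragment in 3 libraries, the share was 77.3%, 81 genes were lower and 196 were far from 1.5-fold; with no filter, the displacement was 0.53, the share 74.3%, and these counts 85 and 222; with at least 50 in all libraries, the share was 83.8%. Without shared loci the displacement was 0.58. Against other genes without those of chromosome 8, an alternative chosen after seeing the data, it was 0.59 with a share of 83.7%. At a fold change of 2, 114 genes were higher and 22 lower. Leaving out single libraries, the displacement ranged from 0.55 (without APL replicate 2) to 0.60 (without MP replicate 3), the share from 81.0% to 83.5%, genes higher from 181 to 213, lower from 37 to 40, near from 125 to 140 and far from 102 to 108.

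Scaling to the same total moved the median ratio of other genes by −0.13, and 41.1% of the calls over all genes were then increases, against 52.8%; on chromosome 15, 159 genes were higher and 43 lower. With the replicate number as a block, 192 genes were higher and 38 lower, as without it; the displacement stayed at 0.56 and the share at 82.3%. Same-numbered libraries correlated at 0.26, −0.13 and 0.25 in their deviations from the group means, so the numbers were not taken to pair the samples, and not every library correlated best with its own number.

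Of 75 named genes, 55 kept direction and call under all settings with a value; of 1250 values, 24 lost and 11 gained a call and 14 reversed. None of the reversed genes was called with a fold change over 1.5 in any setting. With the same total the log2 differences were −0.0461 (Arid2), −0.0452 (Cbx5), −0.0342 (Tarbp2) and −0.0135 (Eif3l), and with quantile normalization −0.0167 (Arid2), −0.0238 (Cbx5) and −0.0163 (Pabpc1). With single libraries left out, Cbx5 ranged from −0.0819 to 0.18, Tarbp2 from −0.0118 to 0.22, Rpl37 from −0.28 to 0.0783, Cyc1 from −0.20 to 0.0175 and Tuba1b from −0.13 to 0.0567, each but Tarbp2 turning without MP replicate 3; Cbx5 and Tuba1b also turned without APL replicate 1. Among genes called with a fold change over 1.5, Ly6a lost its call without MP replicate 1, APL replicate 2 or APL replicate 3, Polr2k without MP replicate 1 or 2 or APL replicate 1 or 3, Ndufa6 without MP replicate 1 or 2 or APL replicate 3, Zfp706 without MP replicate 1 or APL replicate 3, and Nipbl without MP replicate 3; Puf60 lost it with the same total and quantile normalization. Nfe2 (0.66), Rad21 (0.60), Ndufb9 and Cox6c gained a call without MP replicate 3. The cause was not tested. Calls at the adjusted p alone and list counts with single libraries left out were added after seeing the data. The edgeR and DESeq2 alternatives were not run, because the values are scaled estimates.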

Other observations

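A few chromosome 15 genes below the limit were close to absent from one group, with at most 3 fragments before scaling in each of its libraries, and had at least 100 in each library of the other. They were chosen after their values were seen, and folds are set against 3 fragments per library. Bai1, an adhesion receptor, had 575, 667 and 594 scaled fragments in the APL libraries and was at least 219-fold higher there. Wbp2nl, known from sperm, had 154, 175 and 153 and was at least 57.6-fold higher. Khdrbs3, an RNA-binding protein, had 256, 292 and 355 scaled fragments in the MP libraries and was at least 91.8-fold lower in APL cells. Ptk2, the focal adhesion kinase, with 261, 283 and 253, was at least 81.1-fold lower, and the keratin gene Krt18 at least 71.6-fold lower. Myo10, Ldoc1l and Prickle1 were at least 63.3-fold, 58.9-fold and 32.1-fold lower. These 6 genes lie in different windows of the chromosome, from Myo10 at base 25622550 to Krt18 at base 102028216.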
